A study of Sus scrofa with 22 samples.

Results

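Of the 8409 named sequences in the small RNA count tables of pig subcutaneous fat, 688 differed from the leading sequence of their microRNA (miRNA) by a single base past the seed. The leading sequence of a name was the row with the largest count summed over the 22 libraries. A member had the same length as that sequence and exactly 1 other base, at position 9 or later and before the last 3 bases, counted from 1 at the 5′ end, with any change but A to G. The members were chosen by their reads summed over all libraries, which fixed the leading sequence, so their abundance is a description. The 688 members came from 66 of 250 names and held 664453 of 37002566 named reads, which is 1.80%. A change is written as the leading base, the position and the member's base, so that G17A has A where the leading sequence has G.

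The libraries came from female pigs of 6 months with a thick or a thin layer of subcutaneous fat. Pietrain gave 4 thick and 3 thin libraries, Large White 4 and 4, and Hampshire 5 and 2. The labels name no treatment that differed between groups, and each library was counted as 1 pig. Where the labels do not say that libraries came from separate animals, the p-values measure only the spread between these samples. Tissue is a mixture of cells, so fewer cells of a type and less RNA per cell cannot be told apart.

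A miRNA is a short RNA that guides the Argonaute proteins to messenger RNAs and lowers their output. Bases 2 to 8, the seed, carry most of the pairing to targets, while the middle and the 3′ part add to it in some targets. Variants of a miRNA, called isomiRs, differ in their ends or in a base. A base that differs inside a read can come from a related gene that shares most of its sequence, from a genomic variant, from modification or editing of the RNA, or from copying and sequencing of the library. A-to-G changes relative to the leading sequence of the same name, the trace of adenosine deamination, are not among the members.

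The first sequences below are the pairs in which the member held a large share of the reads. The changed base is in capitals in both, and the letters are those of the count tables.
let-7c leading: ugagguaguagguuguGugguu
let-7c G17A: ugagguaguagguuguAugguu
miR-30a-5p leading: uguaaacauccCcgacuggaagc
miR-30a-5p C12U: uguaaacauccUcgacuggaagc
miR-10a-5p leading: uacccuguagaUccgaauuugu
miR-10a-5p U12G: uacccuguagaGccgaauuugu
miR-26a leading: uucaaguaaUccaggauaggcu
miR-26a U10C: uucaaguaaCccaggauaggcu

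The next are 4 members with more reads in thin than in thick Pietrain fat, shown because the same changes at the same positions recurred in several miRNAs.
let-7i-5p leading: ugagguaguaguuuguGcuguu
let-7i-5p G17U: ugagguaguaguuuguUcuguu
miR-27b-3p leading: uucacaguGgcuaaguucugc
miR-27b-3p G9U: uucacaguUgcuaaguucugc
miR-126-3p leading: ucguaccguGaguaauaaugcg
miR-126-3p G10U: ucguaccguUaguaauaaugcg
miR-148a-3p leading: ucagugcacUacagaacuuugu
miR-148a-3p U10G: ucagugcacGacagaacuuugu

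Named reads ran from 430712 to 3136842 per library, and 122 to 465 members were listed in each, fewest in the shallowest library. The tables list no count from 1 to 5, so a count of 0 can stand for a few reads. In the Large White comparison deposited by the authors, the labels of thick replicate 1 and thin replicate 1 did not match. The log2 fold changes in the authors' deposited table had a correlation across 6796 rows of -0.6531 with a refit of thick against thin by the labels, and of -1 with those libraries exchanged. For Pietrain the same correlation by the labels was -1, so the authors' deposited table gives thin relative to thick. Results that use Large White are given by the labels, with the values without both libraries, or with them exchanged, where these differ. Of 6 miRNAs known to be abundant in adipose tissue 5 were found, at a summed 298700 to 493400 CPM (reads scaled to a common library size).

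A pair of members stood apart in abundance. Let-7c G17A had 282268 reads beside 352916 of its leading sequence, and miR-30a-5p C12U had 85277 beside 233836. Together they made up 55.3% of all member reads, and the other 686 members held 296908 reads, or 0.802% of named reads. In other mammals the let-7c member has the sequence known as let-7c and its leading sequence the one known as let-7b, a let-7 family member of another gene. Likewise the miR-30a-5p member has the sequence known as miR-30a and its leading sequence that of miR-30d. No row of the tables is named let-7b or miR-30d.

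The share of let-7c G17A among its own and the leading reads lay between 37.7% and 53.3% over the 22 libraries. In Pietrain thick fat it was 48.3%, 43.9%, 41.2% and 39.4%, and in Pietrain thin fat 37.7%, 42.3% and 39.5%, so these groups overlapped. The breed means were 41.7% ± 3.53 for Pietrain (SD, n = 7), 46.0% ± 3.82 for Large White (SD, n = 8) and 44.0% ± 3.76 for Hampshire (SD, n = 7). Pietrain against Large White gave the smallest p of its comparisons, 0.0430 by a two-sided exact permutation test and 0.355 after Benjamini-Hochberg adjustment over 66 tests of 11 members. The share of miR-30a-5p C12U ranged from 19.8% to 37.7%, and its breed means of 27.2%, 27.9% and 28.7% differed by less than their spread.

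MiR-10a-5p U12G had 3649 reads beside 99371. It has 1 base that differs from the leading sequence of miR-10b, a related miRNA of the Hox gene clusters, and this base stands at the site where miR-10a and miR-10b differ. Its share was 1.91% to 4.66% in the 20 libraries with at least 1000 leading reads. In all, 21 members lay within 1 base of the leading sequence of another name, and none was identical to one.

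MiR-26a U10C was the third most abundant member, with 19445 reads beside 1488379 of miR-26a, a miRNA abundant in fat. Its share in Hampshire thick fat was 1.98%, 1.85%, 1.94%, 1.38% and 1.89%, and in Hampshire thin fat 1.25% and 2.45%. In Large White thick fat it was 1.07%, 1.28%, 1.05% and 0.741%, and in thin fat 1.58%, 1.20%, 1.22% and 1.30%. In Pietrain thick fat it was 0.807%, 0.948%, 1.31% and 1.05%, and in thin fat 0.942%, 1.20% and 1.23%. Of the 7 Hampshire libraries, 5 lay above all others, and the remaining ones, at 1.25% and 1.38%, lay inside the Large White range. Hampshire averaged 1.82% ± 0.400 (SD, n = 7), Large White 1.18% ± 0.241 (SD, n = 8) and Pietrain 1.07% ± 0.183 (SD, n = 7).

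By two-sided exact permutation, the miR-26a U10C difference had p = 0.00264 for Hampshire against Large White and p = 0.00117 against Pietrain, with 0.0872 and 0.0769 after adjustment over the 66 tests, so neither passed. With thick fat alone both exact permutation p-values were 0.0159. In the fit of counts over all sequences (edgeR, quasi-likelihood), the same member was called, with a log2 fold change of 0.81 ± 0.16 (SE) against Large White (adjusted p = 0.00136) and 0.78 ± 0.17 against Pietrain (adjusted p = 0.00195). Its leading sequence had 0.16 ± 0.11 and 0.01 ± 0.12 there, with adjusted p of 0.383 and 0.989. At lengths other than the leading one the same change had 2706 reads beside 123955, a share of 2.14% against 1.29% at the leading length.

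The remaining members of large counts were changes of miR-148a-3p, the most abundant name, and 1 of let-7i-5p. Their shares varied little. MiR-148a-3p U18C had 19094 reads and a share of 0.307% to 0.369%. U10C of the same miRNA ranged from 0.135% to 0.182%, C17U from 0.116% to 0.170%, U19C from 0.109% to 0.143%, C9U from 0.0940% to 0.120% and A13U from 0.0767% to 0.0985%. Let-7i-5p U14C ranged from 0.272% to 0.396%. At the edges of the region the most abundant changes of miR-148a-3p were A8U with 2977 reads just outside and C9U with 6376 just inside at the 5′ side, and U19C with 7661 just inside and U20C with 7209 just outside at the 3′ side.

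Members with large shares in a library but few reads came from shallower names. MiR-125b C11U reached 0.978% and miR-125a C11U 0.976%, both in Hampshire thick replicate 4, on 18 and 14 reads. MiR-199b-5p U17C reached 1.30% and miR-186 U14C 1.01%, the second in one of only 5 libraries with at least 1000 leading reads.

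The members were not spread evenly over the base changes. Without the 2 largest, U to C held 51.9% of member reads, C to U 15.5%, A to U 8.38% and G to A 7.30%. Transitions, which exchange purine with purine or pyrimidine with pyrimidine, took 74.7% of these reads. To compare changes relative to the leading sequence, rates were computed over the 9 names with at least 5000 leading reads in each library. These were let-7a, let-7f-5p, let-7g, let-7i-5p, miR-10b, miR-143-3p, miR-148a-3p, miR-26a and miR-99a. A listed 0 can stand for fewer than 6 reads. Rates of rare changes can therefore still depend on depth and on the level of the leading sequence. Over 33 U-to-C sites of the 9 names the median share was 0.200%, with a range of 0.119% to 1.35%. It was 0.141% over 13 C-to-U sites, 0.0685% over 19 G-to-A sites and 0.0293% over 27 A-to-U sites. Sites of the other transversions had medians from 0.00211% for C to G to 0.0250% for U to A.

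The U-to-C share varied with the base beside the site, over few sites and without a test. The median was 0.321% over 7 sites followed by G, 0.268% over 3 followed by C, 0.197% over 11 followed by U and 0.171% over 12 followed by A. The ranges overlapped, with 0.200% to 0.349% before G and 0.119% to 0.328% before U. By the preceding base the medians were 0.289% after U, 0.211% after A, 0.200% after C and 0.179% after G. U14C, which precedes a G in each of them, had mean shares of 0.349% in let-7g, 0.338% in let-7i-5p, 0.336% in miR-143-3p, 0.321% in let-7a and 0.298% in let-7f-5p. These sites share libraries, and the let-7 names share most of their sequence. In miR-148a-3p, miR-26a and let-7f-5p all 29 possible members were listed, and in miR-143-3p all 27.

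Changes at positions 2 to 7 of the seed were nearly missing from the tables. Of 1633 single changes at the leading length, 4 were at positions 2 to 7, with 113 reads, and none of these in the 9 deep names. The rate per position was 14.8 ± 0.799 per 10000 past the seed and 1.03 ± 0.0979 in it (SD, n = 22). This difference rests on the absence of rows at positions 2 to 7. With position 8 alone, a comparison added after the tables had been seen, the rates were 14.8 and 7.21 ± 0.685, higher past the seed in 22 of 22 libraries (permutation test by sign flips within libraries, two-sided, p = 1e-05, the smallest its 100000 resamples can give). Along the past-seed part the mean rate ran from 6.07 per 10000 at position 15 to 24.9 at position 10 and 24.4 at position 18. The bases also differ between positions. At position 8 miR-148a-3p, miR-26a, miR-143-3p and miR-99a have A, whose change to G is not counted. The let-7 names have G there and miR-10b has U. MiR-148a-3p has A at position 15 and U at positions 10 and 18, and U to C was the most frequent change. The test therefore cannot separate position from base, and no seed effect is drawn from it.

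In Pietrain, the members called between thick and thin fat by edgeR on the counts were G-to-U and U-to-G changes, higher in thin fat. Let-7i-5p G17U had 0 reads in each of the 4 thick libraries and 150, 158 and 124 in the 3 thin ones. Its highest count in the 19 libraries other than Pietrain thin was 9 reads. MiR-27b-3p G9U had 35, 39 and 33 reads in thin fat and 0 in all other 19 libraries. MiR-126-3p G10U had 45, 35 and 24 reads in thin fat and 0 in the other 19. MiR-148a-3p U10G had 14, 14, 8 and 7 reads in thick fat and 51, 51 and 50 in thin fat. In all 4 the thin libraries lay above every thick library, while the leading sequences did not pass the test.

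Of 255 members tested in Pietrain with edgeR, 8 were lower in thick fat and 0 higher at an adjusted p of 0.05, which is 3.14%. Over all 3023 sequences tested 1.72% were called, 0.893% lower and 0.827% higher in thick fat. DESeq2 called 19 of the 255 members, 17 lower and 2 higher, beside 4.37% of all sequences, 2.61% lower and 1.75% higher. Let-7i-5p G17U, miR-27b-3p G9U and miR-126-3p G10U, at 0 in every thick library, passed the filter on low counts only through the thin libraries, so their reads are a description, with no p or fold change, and the count of 8 is no support for a difference. MiR-148a-3p U10G, listed in all 7 libraries, had a log2 fold change of -2.29 ± 0.31 (SE), thick against thin (edgeR), and its leading sequence 0.05 ± 0.16. Too few thick libraries reached the filter's level by themselves, so this member also passed only with the thin libraries. Its fold change is a description, and no p is given. The other 4 called, named here after their values were seen, were miR-26a U10G, miR-143-3p G10U, let-7c G17U and miR-10b G10U. In the 19 libraries other than Pietrain thin they had at most 8, 25, 12 and 22 reads, and 0 in 15, 4, 11 and 4 of them. MiR-26a U10G and let-7c G17U passed the filter only through the thin libraries. All 4 are therefore given as a description, with no p or fold change. Of the 8, 6 were among 14 G-to-U changes tested and 2 among 19 U-to-G changes, and none of 132 transitions was called. Leaving out 1 library left 1 to 16 members called: 2, 1 and 1 without thin replicate 1, 2 or 3, 5 without each of thick replicates 1, 2 and 4, and 16 without thick replicate 3.

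Measured relative to the leading sequence of the same name, 21 of 247 members (8.5%) were called in Pietrain, 20 lower in thick fat and 1 higher (edgeR). This is near the 8.2% of 2011 sequences called, 5.07% lower and 3.13% higher. The same filter on low counts was used. Members such as miR-100 G9U, miR-24-3p G17U and miR-27b-3p G10U, at 0 in the 19 libraries other than Pietrain thin, passed it only through the thin libraries. The counts of called members are therefore a description. By change they were 10 G to U, 4 U to G, 4 A to C and 2 C to A among the lower, and U to C for the 1 that was higher, miR-99b U18C. In the authors' deposited table for Pietrain, 15 of 406 members with an adjusted p were called, all higher in thin fat, beside 1.89% of its 4699 rows with an adjusted p. Among them, miR-24-3p G17U had 23, 16 and 35 reads and miR-27b-3p G10U 21, 33 and 18 in the thin libraries, and both were at 0 in the thick ones. The authors' deposited table for Large White called 0 of 569 members, beside 0% of 6771 rows, and that for Hampshire 0 of 441, beside 0.0187% of 5339.

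The G-to-U rate of Pietrain thin fat was highest at positions 9, 10 and 17 of the 11 positions examined. Over names with at least 1000 leading reads in each Pietrain library, 7 had G at position 9, 7 at position 10 and 7 at position 17. At position 9 the pooled G-to-U rate in the thin libraries was 15.8, 11.9 and 17.6 per 10000, and at most 1.48 in the other 19 libraries. At position 10 it was 14.6, 14.0 and 14.8, with at most 2.17 elsewhere, and at position 17 it was 19.8, 21.6 and 21.9, with at most 1.40 elsewhere. The thin libraries were above every other library at each of these positions. They were so at lower rates at position 13, with 3.43 to 6.78 against 0 elsewhere, on 16 reads of miR-378 and 6 of miR-24-3p in all, and at position 11, with 0.934 to 1.21 against at most 0.814.

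Some of the names behind this are related: miR-99a and miR-100 are of one family, and let-7c and let-7i-5p of another. All 3 thin libraries exceeded all 4 thick ones for miR-100, miR-99a and miR-27b-3p at position 9. At position 10 the same was true of miR-378, miR-10b, miR-126-3p, miR-143-3p and miR-27b-3p, and at position 17 of let-7c, let-7i-5p and miR-24-3p. These were 11 of 18 listed members from 10 names, against 2 of 25 listed at the 8 other positions. Over all 4627 sequences of the same names other than leading ones, 9.06% had every thin library above every thick one and 2.36% every thin library below. In the 9 deep names the G-to-U rate at positions 9, 10 and 17 was 16.8 ± 0.902 per 10000 in Pietrain thin fat (SD, n = 3) and 0.987 ± 0.750 in thick fat (SD, n = 4), and elsewhere 1.73 ± 0.695 and 1.06 ± 0.164. In libraries of this design a read starts at the first base of the small RNA, so a position in the miRNA is the same sequencing cycle in all names. Its part in the result was not tested.

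Other transversions were also higher in Pietrain thin fat. U to G at position 10 had 2.84, 3.30 and 3.12 per 10000 in the thin libraries and at most 0.667 in the other 19. A to C at position 10 had 4.01, 4.88 and 5.24, with at most 2.20 elsewhere, and C to A at position 17 had 2.59, 2.65 and 3.03, with at most 1.69 elsewhere. Of 129 pairs of change and position examined, the thin libraries lay above all thick ones in 24 and below them in 5. The positions were picked out after their values were seen, so no test is given. Pietrain thin libraries had 1551396 to 1698744 named reads, inside the range of the thick ones, 758597 to 3136842. The summed leukocyte miRNAs, all 5 found, were 844 to 1110 CPM in thin and 661 to 814 CPM in thick fat without overlap, and the lists for adipose tissue, liver, muscle, red blood cells, endothelium and smooth muscle overlapped. The part of the leukocyte miRNAs in these differences was not tested.

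The total share of member reads in the 9 deep names was lower in thick than in thin fat in each breed, by values that did not pass the test. Pietrain thick fat had 1.54% ± 0.0610 (SD, n = 4) and Pietrain thin fat 1.75% ± 0.0207 (SD, n = 3), without overlap. The two-sided exact permutation p was 0.0286, the smallest this design allows, and 0.0857 after adjustment over the 3 breeds. Large White had 1.54% ± 0.0391 against 1.60% ± 0.0280 (n = 4 each, exact adjusted p = 0.129), and Hampshire 1.52% ± 0.0557 (n = 5) against 1.58% ± 0.00236 (n = 2, exact adjusted p = 0.190). Over all breeds the mean difference was -0.109 percentage points, with an exact permutation p of 0.000486 stratified by breed. Over the 21 names with at least 1000 leading reads in each library, which take in let-7c and miR-30a-5p, that difference was 0.140 and did not pass, and it turned to 0.0829 in Pietrain and 0.347 in Hampshire. Without miR-148a-3p the differences in Pietrain, -0.257, and in Large White, -0.108, passed (exact permutation, adjusted p = 0.0429 for both). Over the 9 deep names no pair of breeds passed in the total share, with exact permutation adjusted p of 0.205 for each of 3. Over the 21 names all 3 pairs passed by the same test. The adjusted p was 0.00140 for Hampshire against Large White, 0.00524 for Hampshire against Pietrain and 0.0491 for Pietrain against Large White.

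By change type, 0 of 33 tests within breeds passed, with a smallest exact permutation adjusted p of 0.189. The smallest unadjusted p these designs allow is 0.0286 in Pietrain and Large White and 0.0476 in Hampshire. At these values a single type cannot pass after adjustment over the 33 tests, so the lack of calls does not show equal rates. In Pietrain G to U was 1.05 ± 0.182 per 10000 in thick and 4.05 ± 0.676 in thin fat, A to C 1.61 ± 0.319 and 3.29 ± 0.176, U to G 1.54 ± 0.354 and 2.69 ± 0.188, and C to A 1.39 ± 0.276 and 2.19 ± 0.128, none with overlap. In Large White G to U was 0.995 ± 0.385 and 1.19 ± 0.0811, and in Hampshire 1.11 ± 0.404 and 1.63 ± 0.251, with overlap. The other breeds also had types without overlap, all lower in thick fat: A to U in Large White, 4.11 ± 0.196 and 4.40 ± 0.126, and in Hampshire U to G, 1.01 ± 0.0992 and 1.32 ± 0.0691, G to A, 5.85 ± 0.220 and 6.57 ± 0.0816, and G to C, 0.244 ± 0.0522 and 0.363 ± 0.0186. U to C, the most frequent change, was 23.8 ± 0.550 in Pietrain thick and 23.9 ± 0.582 in thin fat.

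Over all breeds together 4 of 11 change types, 36.4%, were lower in thick fat: G to U by 1.24 per 10000, A to C by 0.638, U to G by 0.552 and C to A by 0.430 (exact permutation test stratified by breed, adjusted p of 0.00492, 0.0140, 0.00492 and 0.0281). With Large White thick replicate 1 and thin replicate 1 exchanged, none of the 4 passed. With reads scaled to the smallest library 1 of 11 passed. The shallowest library of each breed was thick, and the part of depth in these differences was not tested further. C to A no longer passed without Large White thick replicate 1 or 3, Large White thin replicate 2, 3 or 4, or Hampshire thin replicate 1. The difference between breeds in the thick-thin contrast was tested for the total and the 11 types, 36 tests in all, and 0 passed (smallest adjusted p 0.361, with 4 unadjusted p under 0.05). The Pietrain pattern is thus not shown to differ from the other breeds by that test.

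In Large White and Hampshire no member sequence was called between thick and thin fat by edgeR. At an unadjusted p of 0.05, 2 of 254 Large White members and 7 of 189 Hampshire members passed, and DESeq2 also called 0 in both. Over all sequences edgeR called 0% of 3075 and 0% of 2593, and DESeq2 0% and 0.154%, of which 0.0386% were higher in thick fat. The smallest p in Large White belonged to miR-21 A10U (log2 fold change -1.86 ± 0.76) and U14A (-1.86 ± 0.85), with miR-126-3p U13G (0.48 ± 0.27) and miR-125b U17C (0.69 ± 0.43) on the higher side. In Hampshire miR-143-3p U16C had -1.05 ± 0.33 and U14C -0.99 ± 0.33, beside -1.05 ± 0.31 for the leading sequence of miR-143-3p, while miR-148a-3p A13C had 0.59 ± 0.31. MiR-125a C19U was listed in 2 of 5 thick and in neither thin library. It passed the filter only through thick libraries, so no p is given. Over all breeds edgeR called 0 of 259 members, beside 0% of 3205 sequences, with 8 members under an unadjusted p of 0.05. DESeq2 called 0 members, beside 0.0624% of all. MiR-143-3p G10U and miR-148a-3p U10G led the lower side by p. Both are among the members described above as higher in Pietrain thin fat, with at most 25 and 32 reads in the 19 other libraries. Their fold changes over all breeds are left out, and no change across breeds is read from them. MiR-99a U11C (0.29 ± 0.16) and let-7c G17A (0.23 ± 0.15) led the higher side.

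Between breeds, members moved largely with the leading sequence of their name. Hampshire against Large White had 59 of 329 members called by edgeR (17.9%), 13 higher and 46 lower in Hampshire, beside 15.7% of all 4054 sequences, 3.9% higher and 11.8% lower. Of the 59, 58 had the sign of their leading sequence, and for 54 that sequence was itself called with the same sign. Hampshire against Pietrain had 74 called (22.5%), 23 higher and 51 lower, beside 20.4% of all, 5.5% higher and 14.9% lower, and 63 shared a called leading sequence of the same sign. These shares are near those of all sequences. Leaving out Hampshire thin replicate 2 left 11 and 22 members called, and leaving out Large White thin replicate 1 left 39 against Large White.

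Let-7 members made up most of those lower in Hampshire. Of 93 let-7 and miR-98 members tested, 39 were lower against Large White and 40 against Pietrain, and none was higher. The median log2 fold change of these 93 was -1.16 and -1.31, beside -0.21 and -0.30 over all sequences. The called members were mostly of let-7f-5p (19 against Large White and 18 against Pietrain), let-7a (10 and 9) and let-7g (9 and 11). Of 27 let-7i-5p members tested only 1 was called, against Pietrain. Let-7f-5p U14C had 23 to 68 reads in Hampshire and 45 to 292 in Large White, with a log2 fold change of -1.49 ± 0.24 beside -1.35 ± 0.22 for let-7f-5p itself (adjusted p = 0.000182 and 0.000151). Its share was 0.239% to 0.341% in Hampshire, with a median of 0.293%, and 0.294% to 0.335% in Large White, with a median of 0.316%. Let-7f-5p U9C and U13C and let-7g U14C followed with -1.61 ± 0.27, -1.42 ± 0.24 and -1.15 ± 0.20. On the higher side, after miR-26a U10C, miR-148a-3p C12U, G14A and U18A had 0.67 ± 0.16, 0.69 ± 0.19 and 0.68 ± 0.20, beside 0.59 ± 0.16 for miR-148a-3p. Against Pietrain, let-7g U14C had -1.27 ± 0.21, let-7f-5p U13C -1.35 ± 0.24 and U14C -1.33 ± 0.25. Let-7f-5p A17U was listed at 0 in all 7 Hampshire libraries and at 7 to 25 reads in Pietrain, where the leading sequence of let-7f-5p was also higher. MiR-148a-3p C12U, G14A and C9U had 0.74 ± 0.17, 0.85 ± 0.20 and 0.79 ± 0.18 against Pietrain.

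Relative to the leading sequence, 18 of 269 members were called for Hampshire against Large White (6.69%, beside 15.8% of 2122 sequences, 5.33% higher and 10.5% lower) and 42 against Pietrain (15.6%, beside 27.3%, 8.58% higher and 18.7% lower). Of the let-7 and miR-98 members 11 and 21 were then lower and 2 and 1 higher, and their median log2 difference was -0.21 in both, beside -0.10 and -0.21 over all sequences. Of 29 miR-148 and miR-152 members none was higher in either, and 6 were lower against Pietrain. Of the 5 smooth muscle miRNAs only 2 were found, miR-145-5p and miR-145-3p, the arms of 1 miRNA, so their sum does not measure that cell type. It was 0 to 3230 CPM in Hampshire, 3957 to 7725 CPM in Pietrain and 3692 to 10150 CPM in Large White. The part of miR-145 in the breed differences was not tested.

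Pietrain differed from Large White in 5 of 329 members by edgeR (1.52%, beside 2.71% of all sequences), all higher in Pietrain and all A-to-C or U-to-G changes. MiR-148a-3p A11C had a share of 0.0286%, 0.0281%, 0.0283% and 0.0276% in Pietrain thick fat and 0.0545%, 0.0525% and 0.0480% in Pietrain thin fat. It was at most 0.0123% in Large White (median 0.00899%, n = 8) and 0.00917% to 0.0128% in Hampshire (median 0.0102%, n = 7). Thus every Pietrain library, thick ones included, lay above all 15 others. The log2 fold change against Large White was 2.01 ± 0.32 (adjusted p = 0.000184), beside -0.10 ± 0.15 for miR-148a-3p.

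Let-7a U13G followed with 1.46 ± 0.35 (adjusted p = 0.0169), at a share of 0.120% to 0.243% in Pietrain (median 0.136%) and 0% to 0.0737% in Large White (median 0.0585%), without overlap. MiR-126-3p U13G had 0.93 ± 0.23 (adjusted p = 0.0244). MiR-103 A20C was listed at 0 in all 15 Large White and Hampshire libraries, at 7, 6, 0 and 0 reads in Pietrain thick fat and at 35, 28 and 28 in thin fat. It entered the test only through Pietrain libraries, so no p is given and its call is a description. The fifth, miR-148a-3p A13C, named after its values were seen, had 0.72 ± 0.19. Relative to the leading sequence 14 of 269 were called, 13 higher in Pietrain (beside 7.16% of all, 5.94% higher), and DESeq2 on the counts called 10 (3.18% of all), without miR-103 A20C. Leaving out 1 library left 1 to 6 members called, with 1 without Pietrain thick replicate 2, 2 without Large White thin replicate 2 or 3, and 3 without Pietrain thin replicate 1 or Large White thick replicate 2 or 3.

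Rates by change type also differed between breeds. For A to C, Pietrain had 2.33 ± 0.933 per 10000 (SD, n = 7), Large White 1.14 ± 0.219 (SD, n = 8) and Hampshire 1.03 ± 0.148 (SD, n = 7), which passed for Pietrain against each (exact permutation, two-sided, adjusted p = 0.0128 for both). Against Hampshire, 4 of 11 types passed (36.4%): also C to A, with 1.73 ± 0.477 in Pietrain and 0.877 ± 0.190 in Hampshire, U to G, with 2.03 ± 0.671 and 1.10 ± 0.175, and U to C, which was the lower in Pietrain, 23.9 ± 0.519 against 26.2 ± 1.46 (exact permutation adjusted p = 0.0128, 0.0308 and 0.0308, n = 7 each). The U-to-C difference was 2.31 per 10000 over the 9 names and -0.0529 in miR-148a-3p alone. Against Large White 1 of 11 types passed (9.09%), and Hampshire against Large White 0 (exact permutation, with a smallest unadjusted p of 0.0312). With thick fat alone none of these breed differences passed. Without Large White thick replicate 1 and thin replicate 1, or without miR-148a-3p, A to C no longer passed for Pietrain against Large White, and without miR-148a-3p neither A to C nor C to A passed against Hampshire. With counts scaled to the smallest library A to C was also lost against Hampshire. The U-to-C difference was lost without Pietrain thick replicate 1, Pietrain thin replicate 1, Hampshire thick replicate 1 or Hampshire thin replicate 2, and that of U to G without any 1 Hampshire library other than thin replicate 1.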

How the data were processed

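Small RNA libraries were made with a ligation kit (NEBNext), size-selected on a gel and read on 1 end. The authors deposited 1 table of raw counts per breed, with a sequence and a miRNA name for each row. Per the submitters' processing notes, bcl2fastq, FastQC and DESeq2 were used with the build Sscrofa10.2. The trimmer, the aligner and the miRNA annotation are not given in the sources used here. Rows without a name, 0.0480% of reads, were left out. The smallest count above 0 in the deposited tables is 6. The authors' deposited comparisons, made with DESeq2 per the submitters' processing notes, hold a mean normalized signal, a log2 fold change with its error, a score (the test statistic), and p-values before and after adjustment, per the file headers.

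The members and lists were chosen with earlier results of these data known. Shares are member reads over member plus leading reads. Rates are member reads per 10000 leading reads and site with that base, over names with at least 5000 leading reads in each library. Shares and rates were compared over libraries by two-sided exact permutation, with Benjamini-Hochberg adjustment within each family of tests. Counts were fitted over all named sequences with edgeR 4.0.16 (TMM, its default filter on low counts, robust quasi-likelihood F-test, adjusted p of 0.05) in R, and with DESeq2 as an alternative. The edgeR script was tested on simulated data. A further edgeR fit used the log count of the leading sequence as offset, for names with at least 1000 leading reads in each library. Within a breed the table of that breed was used. For breeds the tables were joined, with thick and thin weighted equally.

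Members named in the text are the 10 largest by count, up to 8 with the largest share in a library, up to 4 called per direction and comparison by p (or 2 where none was called), and those at the edges of the region. The depth, 430712 to 3136842 named reads per library, limits the precision of low members. The closest pair of libraries within a group had a chi-square of 14.0 per degree of freedom, so no library was taken for a copy. Replicate numbers follow accession order and pair nothing.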

Additional observations from a re-analysis of the deposited data

Results flagged for a closer look

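In 5 of 99 groups of 4 or 5 libraries a single library lay far from the others (Dixon's criterion, which chance meets in about 1 of 20 groups). The U-to-G rate of Large White thick replicate 1 was 0.6691 per 10000, with 1.349 to 1.477 in the other libraries of its group. Let-7c G17A had a share of 53.32% in Large White thick replicate 2, with 42.71% to 44.31% in the others. MiR-26a U10C had 1.38% in Hampshire thick replicate 4, with 1.854% to 1.98% in the others. The same library had the highest shares of miR-125b C11U, 0.9783% against 0.7252% to 0.7631%, and of miR-125a C11U, 0.9763% against 0% to 0.2579%.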

How the results depend on the processing

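The total share depended on which names entered it. With a floor of 1000 leading reads, thick minus thin was 0.0829 points in Pietrain, 0.347 in Hampshire and 0.140 over all breeds, each opposite in sign to the reported value. Hampshire against Large White was then -0.829, Hampshire against Pietrain -0.527 and Pietrain against Large White -0.302, the last reversed. These 3 differences passed (exact permutation, adjusted p = 0.00140, 0.00524 and 0.0491), while none did at the floor of 5000. With the floor of 1000, 1 change type was called for Hampshire against Large White. With a floor of 20000, the change types called were 0 over all breeds, 2 for Hampshire against Pietrain and 2 for Pietrain against Large White. With counts scaled to the smallest library they were 1 over all breeds, 2 for Hampshire against Large White and 3 for Pietrain against Large White, and the total share of Hampshire against Large White reversed to 0.0268. Without miR-148a-3p that value was 0.0328, and the thick minus thin totals of Pietrain, -0.257, and Large White, -0.108, passed (exact permutation, adjusted p = 0.0429). Thick fat alone left 0 change types for Hampshire and for Large White against Pietrain. Without both doubtful Large White libraries 0 were called for Pietrain against Large White, and with them exchanged 0 over all breeds. The causes were not tested.

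Members called in Pietrain between thick and thin were 19 with DESeq2, 14 without a filter, 5 with a filter of 20 CPM and 21 relative to the leading sequence. For Hampshire against Large White they were 34 without a filter and 18 relative to the leading sequence, for Hampshire against Pietrain 45 with the 20 CPM filter and 42 relative, and for Pietrain against Large White 10 with DESeq2, 8 without a filter and 14 relative. Let-7f-5p U13C and U14C, Hampshire against Pietrain, reversed to 0.0155 and 0.0302 on the log2 scale relative to let-7f-5p.

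Leaving out 1 library gave 1 to 16 members called in Pietrain, 11 to 65 for Hampshire against Large White, 22 to 91 for Hampshire against Pietrain and 1 to 6 for Pietrain against Large White. Change types called ranged from 0 to 4, 2 to 5 and 1 to 2 for these breed pairs. The Large White total ranged from -0.0776 to -0.0506. No paired analysis was possible because the replicate numbers follow accession order and the labels tie no libraries together.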
